A study of Mus musculus with 12 samples.

Results

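The NRF2 antioxidant genes are described here in differentiated mouse neurospheres: the transcription factor gene Nfe2l2, which encodes NRF2, its inhibitor Keap1, and 8 genes that NRF2 is known to activate, Nqo1, Hmox1, Gclm, Gclc, Txnrd1, Srxn1, Gsr and Prdx1. A gene was taken in by every non-control probe whose RefSeq accession belonged to it. All 10 genes were found, on 13 of 55681 probes, and they stand among 14330 genes that had a named and expressed probe. All 13 probes were well above background in both channels of all 12 arrays and no spot of theirs was saturated, so none was lost to the filter on dim probes.

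Neural progenitor cells of C57BL/6 embryos at day 13 were grown from the telencephalon as neurospheres and then allowed to attach and differentiate, and total RNA was taken on day 7. WT neurospheres came from wild-type embryos, and APP_WT, BK_APP and HOE_APP neurospheres all came from APPswe/PS1dE9 embryos, whose transgenes, among them a chimeric mouse/human APP with the Swedish mutation, are directed to neurons. APP_WT cells stayed untreated, BK_APP cells received 1 µM bradykinin (BK), the peptide that activates the B2 kinin receptor, and HOE_APP cells received 1 µM HOE-140, an antagonist of that receptor, on days 0, 3 and 6. Each 2-colour array set RNA of 2 conditions side by side, with 4 arrays for each of APP_WT vs WT, BK_APP vs APP_WT and HOE_APP vs APP_WT. In each comparison the dyes ran one way on 2 arrays and the other way on 2. Litters and embryos per culture are not given in the sources used here. The study describes 4 independent biological replicates, yet the labels do not tie arrays to embryos, so p-values measure the spread between these arrays.

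NRF2 is a transcription factor of the cap'n'collar family. KEAP1 binds it in the cytoplasm and hands it to a cullin 3 ubiquitin ligase, so that it is degraded. Oxidants and electrophiles modify cysteines of KEAP1, NRF2 then enters the nucleus, pairs with a small MAF protein and binds the antioxidant response element, a short DNA motif at genes for glutathione synthesis, thioredoxin recycling, quinone reduction and heme breakdown. NRF2 is regulated largely at the protein level, which an expression array does not measure. In brain this programme is known best from astrocytes.

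The promoter sequences below, from RefSeq on GRCm38.p6, show where the letters of the response element stand in genes whose mRNA differed between APP_WT and WT and, for contrast, in Prdx1, which did not pass by its brighter probe. Each window runs from 250 bases before to 50 bases after a start site, 5′ to 3′ on the strand of the gene. Windows were held for 7 of the 10 genes, 9 windows in all, with none for Hmox1, Gclc and Gsr. Both strands were searched for TGACNNNGC and for TGAGNNNGC, the forms of the element's core, and the matches are in capitals. Nfe2l2 lies on the minus strand at chr2:75704614-75704913, Gclm on the plus strand at chr3:122245307-122245606, Srxn1 on the plus strand at chr2:152105274-152105573 and Prdx1 on the plus strand at chr4:116685349-116685648.
Nfe2l2: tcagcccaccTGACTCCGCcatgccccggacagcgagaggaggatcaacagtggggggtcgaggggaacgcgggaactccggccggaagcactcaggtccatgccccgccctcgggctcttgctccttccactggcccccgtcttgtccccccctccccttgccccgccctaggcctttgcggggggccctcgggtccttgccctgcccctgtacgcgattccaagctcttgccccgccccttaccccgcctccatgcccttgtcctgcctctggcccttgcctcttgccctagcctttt
Gclm: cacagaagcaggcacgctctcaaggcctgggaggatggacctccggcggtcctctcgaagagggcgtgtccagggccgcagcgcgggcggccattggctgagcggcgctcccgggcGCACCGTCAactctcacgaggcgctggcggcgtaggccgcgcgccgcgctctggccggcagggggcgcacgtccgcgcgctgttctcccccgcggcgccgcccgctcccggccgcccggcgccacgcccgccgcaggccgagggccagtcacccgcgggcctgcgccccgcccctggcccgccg
Srxn1: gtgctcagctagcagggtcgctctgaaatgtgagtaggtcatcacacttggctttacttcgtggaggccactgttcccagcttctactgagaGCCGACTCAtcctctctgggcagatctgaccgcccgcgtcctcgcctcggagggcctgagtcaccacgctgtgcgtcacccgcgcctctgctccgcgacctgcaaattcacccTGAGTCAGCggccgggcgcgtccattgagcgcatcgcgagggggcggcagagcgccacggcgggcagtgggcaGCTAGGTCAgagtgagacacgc
Prdx1: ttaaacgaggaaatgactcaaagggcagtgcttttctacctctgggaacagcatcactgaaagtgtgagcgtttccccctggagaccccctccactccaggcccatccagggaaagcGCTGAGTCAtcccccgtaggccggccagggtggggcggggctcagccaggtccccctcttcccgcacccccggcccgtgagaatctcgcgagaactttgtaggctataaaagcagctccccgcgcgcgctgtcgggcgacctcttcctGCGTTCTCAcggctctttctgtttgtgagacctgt

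The core TGACNNNGC was present in 5 of the 9 windows, those of Nfe2l2, Gclm, Srxn1 and Prdx1 and 1 of 3 windows of Txnrd1. It was present in 12.4% of all 32851 promoter windows of the same length. The match began 240 bases before the start site in Nfe2l2 (TGACTCCGC), 134 before it in Gclm (GCACCGTCA, the other strand) and 133 before it in Prdx1 (GCTGAGTCA, the other strand). In Srxn1 it began downstream, at base 29 from the start site (GCTAGGTCA, the other strand). TGAGNNNGC, present in 17.6% of all windows, was found in 2 of the 9, with 2 matches in Srxn1 and 1 in Prdx1. The Srxn1 match TGAGTCAGC, 45 bases before the start site, and the upstream Prdx1 match each overlap an AP-1 site (TGANTCA), a motif present in 7.81% of all windows. The windows of Keap1 and Nqo1 held neither form, and sequence outside the windows was not searched. A match is a description of the letters and says nothing of binding in these cells.

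APP_WT vs WT asked how the transgenic cells differ from wild-type cells without treatment. Of the 10 genes, 4 rose in APP_WT and none fell at an adjusted p below 0.05 (limma, Benjamini-Hochberg over 29361 expressed probes). Among all those probes 18.5% were called, 11.6% as higher and 7.00% as lower, a split of 62.3% higher calls that became 34.3% with the scanner software's processed signals and 36.2% with each array centred on its median. Of the 14330 named genes, each by its brightest expressed probe as for the 10, 25.0% were called. The genes that rose were Nfe2l2, Hmox1, Gclm and Srxn1, with fold changes between 1.16 and 1.42. The 10 genes had a median of 0.15 on the log2 scale, against 0.015 over all named genes. Under median centring, which left the median of all expressed probes at -0.066, the median of the 10 was -0.016. The same 4 of the 10 genes were above 0 on each of the 4 arrays, against 15.1% of all probes. The calls came from these same arrays, so the shared sign is no separate support for them.

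**Figure D1:**
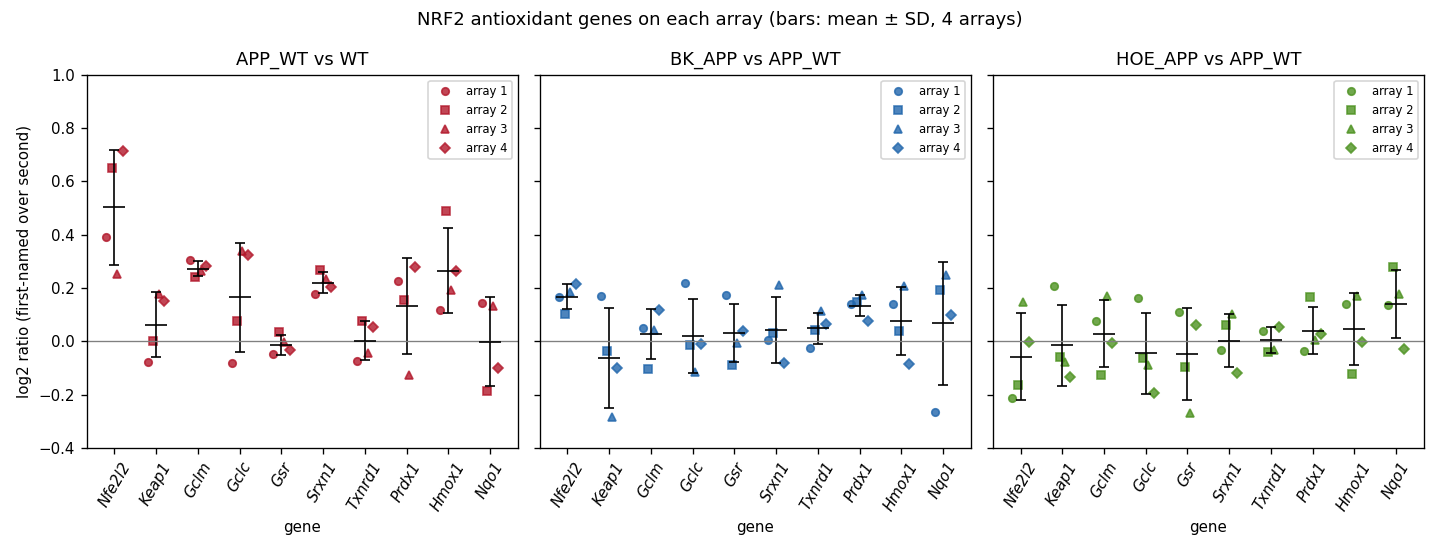
Log2 ratio of each NRF2 antioxidant gene on each of the 4 arrays of the 3 comparisons, by its brightest probe, with the mean ± SD over 4 arrays in black. In APP_WT vs WT the points of Nfe2l2, Gclm, Srxn1 and Hmox1 all lie above 0, while in HOE_APP vs APP_WT every gene has arrays on both sides of 0.

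Nfe2l2 had the largest change of the 10. Its log2 ratios of APP_WT over WT were 0.39, 0.65, 0.25 and 0.71 on arrays 1 to 4, so that arrays 2 and 4 stood well above the other two. The fitted log2 fold change was 0.50 with a standard error of 0.074, or 1.42-fold (limma adjusted p = 0.000835). Its log2 channel level was 10.8 to 11.2 in WT and 11.3 to 11.6 in APP_WT, and the levels did not overlap. Keap1 did not pass the test. Its log2 ratios were -0.077, 0.00073, 0.18 and 0.15, with an estimate of 0.063 and a 95% confidence interval from -0.070 to 0.20 (limma adjusted p = 0.520). The difference between the 2 genes was not tested.

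Among the glutathione genes, Gclm rose and Gclc and Gsr did not pass. Gclm encodes the modifier subunit of glutamate-cysteine ligase, the enzyme of the first and limiting step of glutathione synthesis. Its log2 ratios were 0.30, 0.24, 0.26 and 0.28, the tightest of the 10 genes (SD 0.027), and the fold change was 0.27 ± 0.055 (log2, SE, limma adjusted p = 0.00583). The channel levels of Gclm overlapped between the conditions, at 8.40 to 8.86 in WT and 8.68 to 9.17 in APP_WT, yet APP_WT was the higher channel on every array. Gclc, the catalytic subunit, had log2 ratios of -0.082, 0.076, 0.34 and 0.33. Arrays 3 and 4, with APP_WT in Cy5, gave the high values, and arrays 1 and 2, with APP_WT in Cy3, the low ones. Its estimate was 0.16, with an interval from 0.033 to 0.30 (limma unadjusted p = 0.0189 and adjusted p = 0.0823). Gsr, which returns oxidised glutathione to its reduced form, stayed near 0 on all arrays (-0.049, 0.033, -0.0030 and -0.035), with an estimate of -0.013 and an interval from -0.16 to 0.13. A dimmer second Gsr probe gave 0.024.

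In the thioredoxin branch Srxn1 rose and Txnrd1 did not. Srxn1 encodes sulfiredoxin, which repairs overoxidised peroxiredoxins. Its log2 ratios were 0.18, 0.27, 0.23 and 0.20, with a fold change of 0.22 ± 0.060 (log2, SE, limma adjusted p = 0.0260). Its channel levels did not overlap, at 11.23 to 11.36 in WT and 11.46 to 11.53 in APP_WT. Txnrd1, the cytosolic thioredoxin reductase, had ratios of -0.075, 0.075, -0.044 and 0.052 and an estimate of 0.0022, and its interval, from -0.11 to 0.11, was the narrowest of the 10. For Prdx1, a peroxiredoxin that removes hydrogen peroxide, the 2 probes fell on different sides of the threshold. The brighter one gave 0.22, 0.15, -0.13 and 0.28 with an estimate of 0.13 (limma adjusted p = 0.195). The dimmer one gave 0.13, 0.059, 0.21 and 0.22 with an estimate of 0.15 (limma adjusted p = 0.0323). The estimates are alike, and the brighter probe was below 0 on the third array only.

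Hmox1 and Nqo1, both widely used as NRF2 reporters, fell on different sides of the threshold. Hmox1, the inducible heme oxygenase, had log2 ratios of 0.12, 0.49, 0.19 and 0.26 and rose by 0.27 ± 0.076 (log2, SE, limma adjusted p = 0.0337). The levels were 10.49 to 10.86 in WT and 10.89 to 10.97 in APP_WT and did not overlap, by a narrow gap. A much dimmer second probe for Hmox1 was above 0 on all 4 arrays too, at 0.0076 to 0.38, and did not pass (estimate 0.22, limma adjusted p = 0.0951). Nqo1, a quinone reductase, was higher in APP_WT on 2 arrays and lower on 2 (0.14, -0.19, 0.13 and -0.099), with an estimate of -0.0023 and an interval from -0.19 to 0.18. With the processed signals and with the deposited ratios Nqo1 was at -0.23 and did not pass. Levels did not overlap, with APP_WT higher, for 3 of the 10 genes, Nfe2l2, Srxn1 and Hmox1, which held for 6.72% of all probes.

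The calls of Hmox1, Gclm and Srxn1 depended on the processing, and that of Nfe2l2 did not. Nfe2l2 passed in every alternative that was run, limma or not, with log2 fold changes of 0.35 to 0.62. Gclm lost its call with the processed signals (0.19), with the deposited log2 ratios (0.19), under median centring in place of loess (0.18) and with each comparison fitted by itself without a dye term, where its value of 0.27 stayed and its limma adjusted p was 0.0639. Hmox1 lost its call with the processed signals and with the deposited log2 ratios, at 0.22 in each. Srxn1 gave 0.071 and Hmox1 0.13 under median centring, and neither passed there, nor with separate fits without a dye term or with no filter on dim probes. By SAM with rank products, where both tests must pass, none of the 3 did. Hmox1, Gclm and Srxn1 passed SAM by itself (two-sided permutation p = 0.0266, 0.00569 and 0.0119). They did not pass rank products (one-sided permutation p = 0.0776, 0.0560 and 0.110). Hmox1 and Srxn1 also lost their calls without array 2, 3 or 4, with Hmox1 at 0.17, 0.28 and 0.25 and Srxn1 at 0.20, 0.21 and 0.23. Prdx1 by its brighter probe passed without the third array, at 0.23, and was at 0.031 without the fourth. Gclc passed with the deposited ratios, at 0.18.

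**Figure D2:**
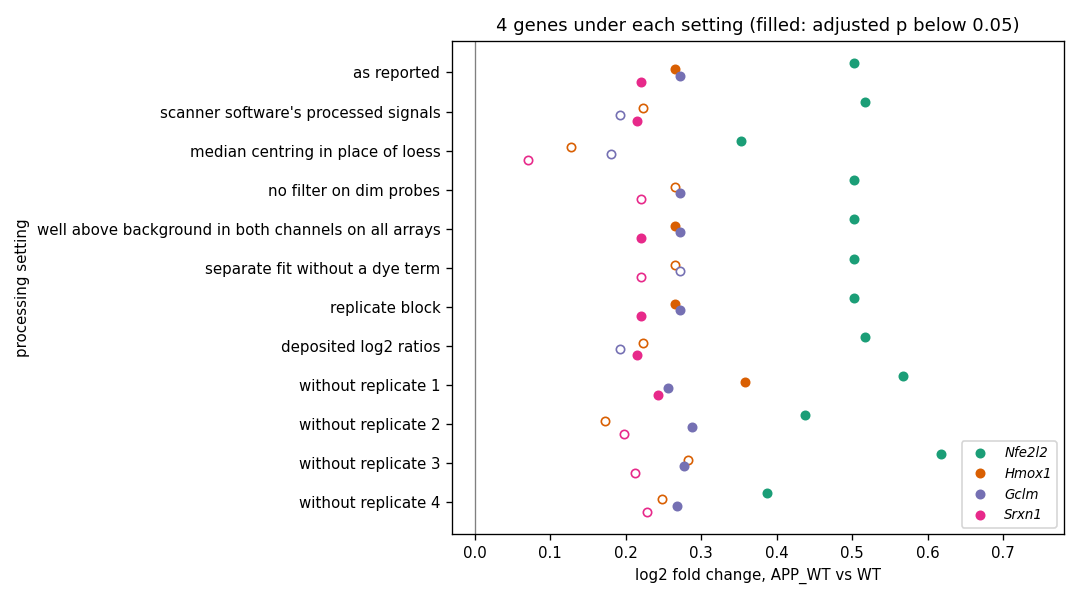
Log2 fold change of Nfe2l2, Hmox1, Gclm and Srxn1 in APP_WT vs WT under each processing setting, with filled points where the limma adjusted p was below 0.05. All points lie above 0, and Nfe2l2 alone is filled in every row, at 0.35 to 0.62.

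Marker genes of several cell types differed in the same comparison. Of 17 microglial marker genes 15 had a named and expressed probe. P2ry12 and Cd68 had none, which does not show that they were absent. Of the 15 markers 14 rose, and the median log2 fold change was 1.39, with Aif1 at 2.21 and Cx3cr1 at 2.31. The log2 of the summed linear levels of the 15 markers, in which the brightest weigh most, was 13.3 to 13.6 in WT and 13.9 to 14.2 in APP_WT. In WT 6 of the 15 markers were well above background on all 4 arrays, against 14 in APP_WT. The filter on dim probes asks this of 1 channel only, so markers could enter through the condition where they are high. The sizes of their ratios rest in part on WT levels near background. For Laptm5 no WT channel was well above background. Of 10 astrocyte markers 7 rose, with Gfap at 0.69 and Aqp4 at 0.73. The log2 of the summed linear levels of the 10 was 16.7 to 17.0 in WT and 17.2 to 17.3 in APP_WT. Of 14 neuronal markers 5 rose and 4 fell, Map2 among the latter at -0.31, and Tubb3, at -0.13, did not pass. Of 7 progenitor markers 3 rose and 2 fell, from Hes5 at -0.63 to Vim at 0.97. The share called was 93.3% of the microglial, 70.0% of the astrocyte, 64.3% of the neuronal and 71.4% of the progenitor markers. Of the oligodendrocyte lineage markers 22.2% were called, of the endothelial and pericyte markers 25.0%, and of all named genes 25.0%. Markers of neurons, astrocytes and progenitors were present in both conditions, as the labelled tissue implies. With the processed signals the median of the microglial markers was 2.84 and 14 rose as before. With median centring 3 astrocyte markers rose and 1 fell, and 2 neuronal markers rose and 5 fell. The part of these cell types in the rise of Nfe2l2, Hmox1, Gclm and Srxn1 was not tested, and in bulk RNA fewer cells of a type and less RNA per cell cannot be told apart. The only expressed probe named App gave 0.12 (limma adjusted p = 0.0925), and whether it matches the transgene is not given in the sources used here.

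BK_APP vs APP_WT asked what B2 receptor stimulation did in the transgenic cells. None of the 10 genes passed the adjusted threshold, nor did any of the 29361 probes (0.00%). At an unadjusted p below 0.05, 1 of the 10 genes and 4.47% of all probes passed. That gene was Nfe2l2. Its log2 ratios of BK_APP over APP_WT were 0.17, 0.10, 0.19 and 0.21, above 0 and close together on every array, with an estimate of 0.17 ± 0.074 (SE), an interval from 0.0042 to 0.33 and an unadjusted limma p of 0.0453 (adjusted p = 0.967). Its levels, 11.50 to 11.63 in APP_WT and 11.67 to 11.80 in BK_APP, did not overlap, which held for 1 of the 10 genes and 0.563% of all probes in this direction. SAM and rank products, the tests named in the study's methods, used at an unadjusted p of 0.05, also called Nfe2l2 (two-sided permutation p = 0.00919 and one-sided permutation p = 0.0413), and called 1.85% of all probes. In the same comparison 5 of the 15 expressed microglial markers passed an unadjusted p below 0.05, with a median of 0.15 over the 15. The log2 of their summed linear levels was 13.8 to 14.2 in APP_WT and 14.0 to 14.1 in BK_APP. The 14 neuronal markers were all below 0 (median -0.11, with 2 passing unadjusted), as were 8 of the 10 astrocyte markers (median -0.051, with 3 passing unadjusted), and no marker passed the adjusted threshold. The part of these markers in the value of Nfe2l2 was not tested.

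The other gene that lay above 0 on all 4 BK arrays was Prdx1, at 0.14, 0.15, 0.17 and 0.077 by its brighter probe, so that 2 of the 10 genes did so against 5.10% of all probes. Its estimate was 0.13 with an interval from -0.012 to 0.28 (limma adjusted p = 0.967), and its dimmer probe gave 0.084 with the fourth array at -0.049. The remaining estimates were small. Hmox1 was at 0.075, Nqo1 at 0.068, Txnrd1 at 0.049, Srxn1 at 0.041, Gsr at 0.030, Gclm at 0.026 and Gclc at 0.020, and Keap1 was the single gene below 0, at -0.063. Within them the arrays differed in sign, as in Nqo1, which ran from -0.27 on the first array to 0.25 on the third, and Keap1, from -0.28 on the third to 0.17 on the first. Of the 10 estimates 9 were above 0, as were 50.5% of those of all named genes, and their median was 0.045. The 95% intervals of the 10 genes reached from -0.20 to 0.33 on the log2 scale, so changes beyond 1.26-fold up or 1.15-fold down lay outside every interval.

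HOE_APP vs APP_WT asked the same of the B2 antagonist. Both channels of these arrays carry the same treatment in their labels, so the direction, taken from the first channel, the titles and the swapped layout, is likely rather than settled, and turning it would change the sign of every value here. In the direction as labelled all 15 expressed microglial markers were below 0, with a median of -0.081 and none called. No gene of the 10 passed, nor did any of the 29361 probes (0.00%), and at an unadjusted p below 0.05 none of the 10 and 5.03% of all probes passed. No gene had the same sign on all 4 arrays, which 10.7% of all probes had. The largest estimate was that of Nqo1, at 0.14 (0.14, 0.28, 0.18 and -0.028 on the arrays), with an interval from -0.047 to 0.33 and an unadjusted limma p of 0.126. Nfe2l2 was at -0.058, with ratios of -0.21, -0.16, 0.15 and -0.0013. Of the others, Hmox1 was at 0.045, Prdx1 at 0.039, Gclm at 0.028, Txnrd1 at 0.0041 and Srxn1 at 0.0021, and Keap1 at -0.015, Gclc at -0.046 and Gsr at -0.049 lay below 0. The intervals of the 10 genes reached from -0.22 to 0.33, or from 1.17-fold lower to 1.25-fold higher.

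**Figure D3:**
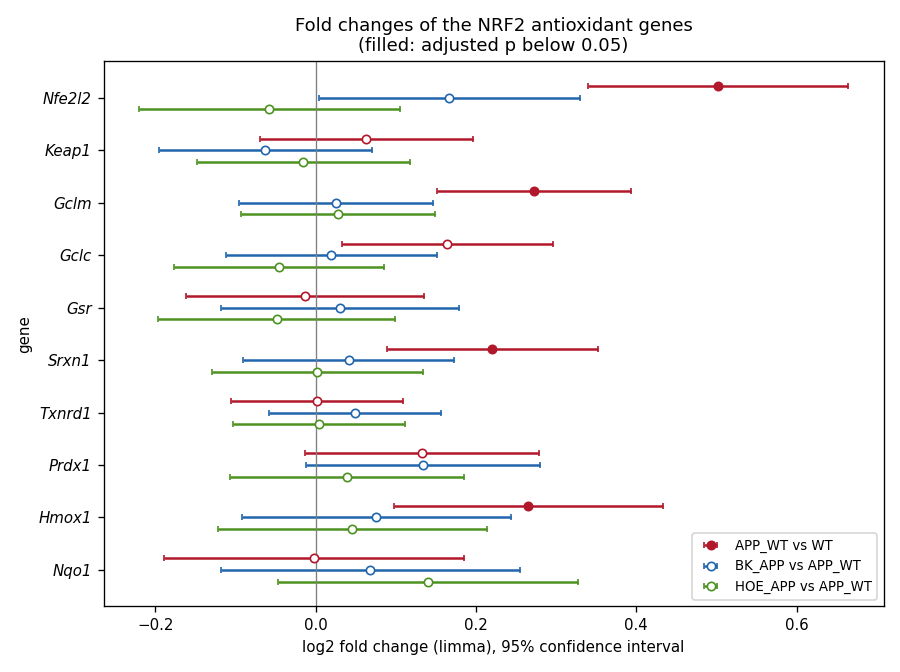
Log2 fold change with its 95% confidence interval for each NRF2 antioxidant gene in the 3 comparisons, filled where the limma adjusted p was below 0.05. Filled points occur in APP_WT vs WT alone, for Nfe2l2, Gclm, Srxn1 and Hmox1, and the intervals of both treatments stay between -0.22 and 0.33.

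The agonist and the antagonist were also set against each other in the same model. Both comparisons used untreated APP_WT cells, so their values are not independent. The model treated their arrays as independent, so the interval and p-values of the difference leave out that link. The difference BK_APP minus HOE_APP as labelled was largest for Nfe2l2, at 0.22 on the log2 scale, with an interval from -0.0053 to 0.45 (limma unadjusted p = 0.0546, adjusted p = 1.00). For the other 9 genes it lay between -0.072 and 0.095, and none of the 10 passed (0.00% of all probes), nor did any at an unadjusted p below 0.05, as 2.50% of all probes did. Turning the sign of the 4 HOE_APP arrays put Nfe2l2 at 0.11, below Nqo1 at 0.21, Prdx1 at 0.17 and Hmox1 at 0.12, so the order rests on that direction, and none of the 10 passed there either. Over the 15 expressed microglial markers the same difference was above 0 for 15 of 15, with a median of 0.21 and none called, and over the 14 neuronal markers it was below 0 for 14 of 14, with a median of -0.14 and none called. With the HOE_APP sign turned, 8 of the 15 microglial and 3 of the 14 neuronal markers were above 0. The part of these markers in the value of Nfe2l2 was not tested.

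**Figure D4:**
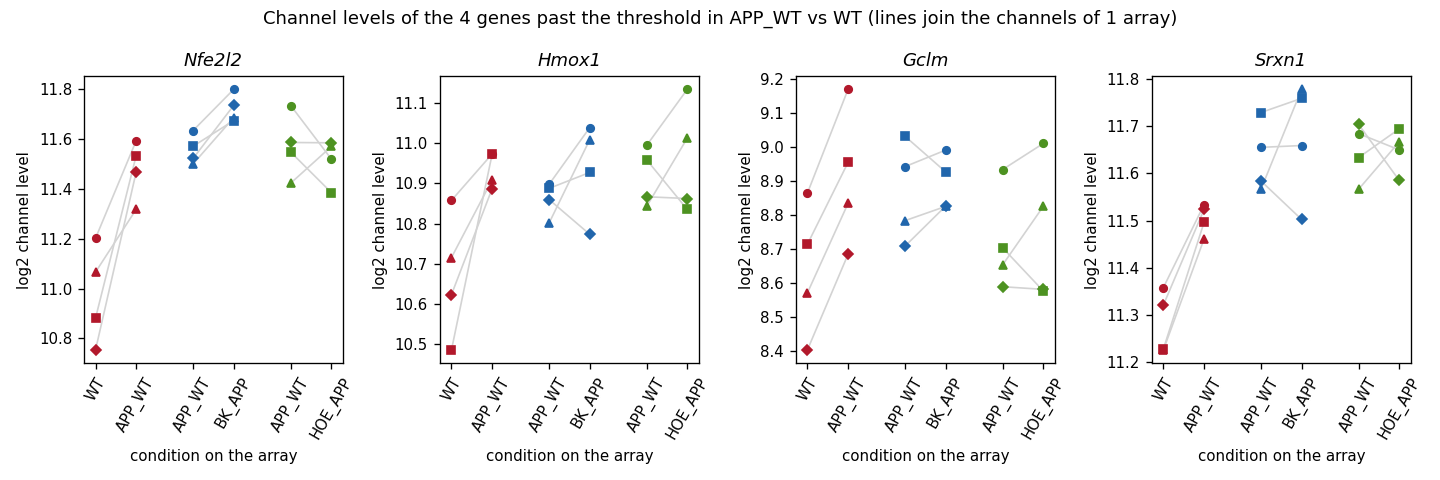
Log2 channel level of Nfe2l2, Hmox1, Gclm and Srxn1 in each condition, with a symbol for each array and a line between the channels of 1 array. Every line rises from WT to APP_WT, and for Nfe2l2 every line also rises from APP_WT to BK_APP, while the HOE_APP lines run both ways.

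By mean level, Nfe2l2 was lowest in WT and highest in BK_APP, though its step from APP_WT to BK_APP did not pass the adjusted threshold. Its mean log2 level was 10.98 ± 0.20 in WT (SD, n = 4), 11.48 to 11.57 in the APP_WT channels of the 3 comparisons, 11.51 ± 0.091 in HOE_APP and 11.72 ± 0.057 in BK_APP. APP_WT and HOE_APP did not differ beyond their spread. For Hmox1 the mean was 10.67 ± 0.16 in WT, 10.86 to 10.94 in the APP_WT channels, 10.94 ± 0.12 in BK_APP and 10.96 ± 0.14 in HOE_APP, and the transgenic conditions overlapped throughout. Srxn1 had a mean of 11.28 ± 0.067 in WT, and its APP_WT channels averaged 11.50 on the slide shared with WT and 11.63 and 11.65 on the slide of the treated cells, a shift between slides as large as some differences between conditions. The 2 slides hold different comparisons, so slide and comparison cannot be told apart and ratios within an array are the safer measure.

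Over the 12 arrays the ratios of the 4 genes that rose in APP_WT were correlated with each other. Pearson's r with Nfe2l2 was 0.74 for Gclm, 0.69 for Hmox1 and 0.67 for Srxn1, and -0.51 for Nqo1. The highest r among the 10 genes joined Keap1 and Gclc, at 0.88, both of which followed the dye orientation in APP_WT vs WT. Of 14150 genes compared, those most like Nfe2l2 were Mrps6 (r = 0.95), Rsph3b (0.94) and Gmfg (0.94). Hmox1 was most like Col18a1 (0.94), AF067063 (0.92) and Itgb2 (0.90), Gclm like N4bp3 (0.93), Slc12a9 (0.92) and Rhpn2 (0.92), and Srxn1 like Gch1 (0.92), Oas1f (0.91) and Col4a5 (0.91). The 12 points fall into 3 comparisons and share arrays, dyes and slides, and the values are given as a description. The 4 genes were picked as higher in APP_WT vs WT, so a positive r among them over the 3 comparisons is partly built in. Likewise, any gene that differs in that comparison tends to rank as alike.

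Other genes of the same biochemistry were read from 6 lists of 65 genes, of which 63 had a named and expressed probe (all but Ggt5 and Hpx). In APP_WT vs WT 22 of the 63 rose and 4 fell and the median was 0.11. With the processed signals 17 rose and 5 fell, and under median centring 11 rose and 8 fell with a median of -0.021. The share called, 41.3%, compares with 25.0% of all named genes. In BK_APP vs APP_WT and in HOE_APP vs APP_WT none of the 63 passed.

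**Figure D5:**
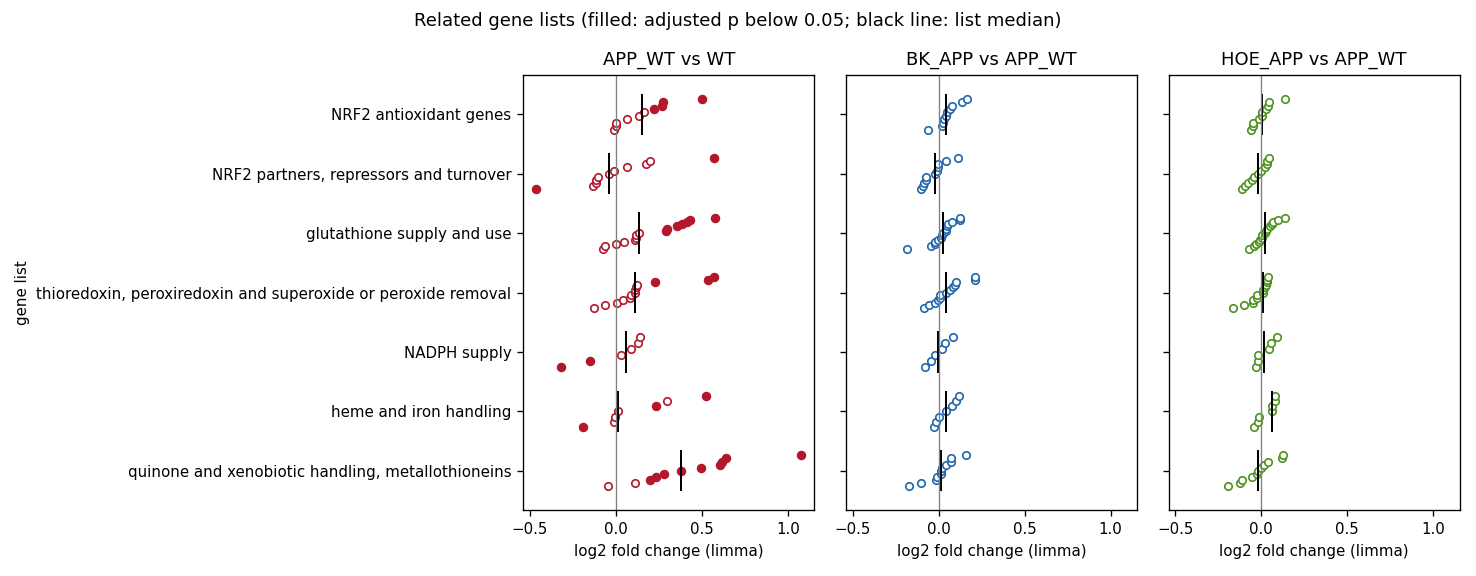
Log2 fold changes of the NRF2 antioxidant genes and of 6 related lists in the 3 comparisons, each point a gene, filled where the limma adjusted p was below 0.05, with the list median as a black line. Filled points occur in APP_WT vs WT alone, and their share is highest in the list of quinone and xenobiotic handling and metallothioneins, where 9 of 11 genes rose.

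Among 11 partners, repressors and turnover genes of NRF2, 1 rose and 1 fell, or 18.2% called against 25.0% of all named genes. Under median centring 1 rose and 5 fell. Maff, a small MAF partner, had log2 ratios of 0.65, 0.58, 0.45 and 0.61 and rose by 0.57, and Bach2, a repressor that competes for the same motif, had ratios of -0.36, -0.54, -0.35 and -0.59 and fell by 0.46 (limma adjusted p = 0.000411 and 0.00107). Bach1, the repressor best known at Hmox1, was at -0.13 (limma adjusted p = 0.197) and the related factor Nfe2l1 at -0.041. Both of the called genes had all 4 arrays on one side of 0.

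Of 15 expressed glutathione genes 7 rose and none fell, or 46.7% called against 25.0% of all named genes. Under median centring 2 rose, Gpx1 and Gpx7. The largest were the glutathione peroxidases Gpx1, at 0.58, and Gpx4, at 0.43, which removes lipid peroxides, and the glutathione transferase Gstm1, at 0.41, a family of close paralogs that can share a probe. Slc7a11, the cystine importer and a classical NRF2 target, was at -0.073 and did not pass (limma adjusted p = 0.630), while its partner chain Slc3a2 rose by 0.29. Among 13 thioredoxin, peroxiredoxin and superoxide genes 3 rose, Prdx6 by 0.57, the extracellular superoxide dismutase Sod3 by 0.53 and the mitochondrial Prdx5 by 0.23. That share of 23.1% is near the 25.0% of all named genes. The ratios of Prdx6 were 0.093 and 0.23 with APP_WT in Cy3 against 0.96 and 1.01 with APP_WT in Cy5. Txnip, an inhibitor of thioredoxin, was at -0.13 in APP_WT vs WT and at 0.21 in BK_APP vs APP_WT, passing in neither.

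Of 6 NADPH supply genes none rose and 2 fell, the isocitrate dehydrogenase Idh1 by 0.32 and the pentose phosphate enzyme Taldo1 by 0.15. In heme and iron handling 2 of 7 rose, the ferritin heavy chain Fth1 by 0.52 and the heme-forming ferrochelatase Fech by 0.23, and the ferritin light chain Ftl1 fell by 0.19, though its arrays split by dye (-0.48 and -0.40 against 0.070 and 0.031). Both ferritin genes have many near-identical pseudogenes, so their probes are uncertain. The share called was 33.3% for NADPH supply and 42.9% for heme and iron handling, against 25.0% of all named genes.

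Quinone and xenobiotic handling genes and metallothioneins had the highest share called, 81.8% with 9 of 11 up, against 25.0% of all named genes. With the processed signals or median centring 5 of 11 rose. Ephx1, the microsomal epoxide hydrolase, showed the largest change of all 63 genes, with log2 ratios of 0.99 to 1.15 on the 4 arrays and a 2.11-fold rise. The carbonyl reductase Cbr3 rose by 0.64 and the aldehyde oxidase Aox1 by 0.62, the latter from 3 arrays because its spot on the fourth was dropped as non-uniform. The metallothioneins Mt2 and Mt1, which bind zinc and copper, rose by 0.61 and 0.50, but the ratios of Mt1 were -0.085 and 0.050 with APP_WT in Cy3 against 1.00 and 1.02 with APP_WT in Cy5, so its value rests on the balance of dyes. In BK_APP vs APP_WT, 2 of the 63 genes passed an unadjusted p below 0.05, Cbr3 at 0.16 and Mt1 at -0.18, and in HOE_APP vs APP_WT 2 did, Ephx1 at -0.19 and Prdx6 at -0.16, against 4.47% and 5.03% of all probes.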

How the data were processed

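RNA from 4 arrays for each of 3 comparisons was hybridised to 2-colour Agilent mouse arrays from 100 ng of total RNA. The authors deposited scanner files whose red and green intensity columns, per the file headers, came from Feature Extraction 11.0.1.1, while the methods name another version. Those files also hold the log10 ratio of the processed red over green signals, which the scanner software computed before the authors deposited them. A table of log2 ratios deposited by the authors served as an alternative. It tracked the scanner's log10 ratios at r of 0.999 to 1.00, in the same direction on every array, with medians from -0.155 to 0.036, and its centring is not given in the sources used here.

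Median intensities were corrected with normexp (offset 50) against median background, normalised by loess (span 0.3) within arrays with control and non-uniform spots at weight 0, and averaged by probe. Non-uniform spots were then dropped, and ratios were turned so that the first-named condition is the numerator. Expressed probes were well above background on at least 3 of 4 arrays of one channel of a comparison. limma 3.58.1 in R 4.3.3 fitted 12 arrays together, with 1 mean and 1 dye term for each comparison (6 residual degrees of freedom), and intervals are at 95%. A gene was represented by its brightest expressed probe, and RefSeq accessions gave names to 27509 of 55681 probes. Channel levels were put on one scale by Aquantile. The number of arrays limits the precision, and 51.2% to 60.3% of probes were well above background per array. The model was tested on simulated data. Arrays of opposite dye correlated between -0.32 and -0.11 within the treated comparisons, and those of the same dye between 0.24 and 0.43. In APP_WT vs WT all pairs were between 0.24 and 0.61.

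The deviations of same-numbered BK_APP and HOE_APP arrays from their comparison means correlated at 0.67, 0.56, 0.67 and 0.52. Same-numbered arrays share their dye orientation, which by itself can give such a correlation. Differences between arrays of one orientation, in which a common dye term cancels, correlated at 0.42 (array 1 minus 2) and 0.43 (array 3 minus 4). Between APP_WT vs WT arrays and same-numbered treated arrays, whose dye orientation is opposite, the deviations correlated between -0.60 and -0.30. Differences within an orientation correlated there between -0.51 and -0.20. The numbers were taken to pair the BK_APP and HOE_APP arrays, and a replicate block was run as an alternative. Duration in suspension was 5 days per the labels. The 10 genes, the related lists and the markers were chosen with earlier results of these data known. Named genes were the 10, the 3 largest called changes of each related list, 6 further genes whatever their values (Txnip, Slc7a11, Mt1, Mt2, Nfe2l1 and Bach1), defining markers, and for each called gene the 3 most alike by Pearson correlation. Slc3a2, Gpx7, App and Laptm5 were named after their values were seen. Alternatives covered background correction, normalisation, filters, separate fits without a dye term, the block, the deposited ratios, SAM with rank products, and leaving out each array.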

Additional observations from a re-analysis of the deposited data

How the results depend on the processing

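Nfe2l2 kept its rise in APP_WT vs WT under all alternatives run. The number of the 10 genes called there was 4 as reported, 2 with processed signals, 1 with median centring, 2 with no filter, 1 with each comparison fitted by itself without a dye term, 1 with SAM and rank products, and 2 to 4 when an array was left out, with 2 without the second or the fourth. Probes called there fell from 5446 to 1834 with separate fits without a dye term and to 3540 with SAM and rank products, and the related genes from 26 to 12 with those separate fits, in which both choices changed together. SAM and rank products called 544 probes, 1 of the 10 genes and 1 related gene in BK_APP vs APP_WT, and 679 probes, 0 of the 10 and 1 related gene in HOE_APP vs APP_WT. Leaving out an array gave 0 to 62 probes for BK_APP vs APP_WT (62 without array 1), 0 to 9 for HOE_APP vs APP_WT (9 without array 4) and 0 to 13 for their difference (13 without BK_APP array 1), with none of the 10 genes among them. The replicate block changed no call of the 10 genes, with Nfe2l2 in APP_WT vs WT at 0.50 (limma adjusted p = 0.00356) and in BK_APP vs APP_WT at 0.17 (limma adjusted p = 0.866). The slide as a block could not be fitted, since each comparison lies on 1 slide. Median centring moved the median of all expressed probes to -0.066 in APP_WT vs WT, 0.037 in BK_APP vs APP_WT and 0.076 in HOE_APP vs APP_WT. It also turned log2 fold changes that had not passed. They were Keap1 (-0.088), Txnrd1 (-0.16) and Prdx1 (-0.041) in APP_WT vs WT, Keap1 (0.017) in BK_APP vs APP_WT, and Nfe2l2 (0.070), Keap1 (0.12), Gclc (0.089) and Gsr (0.075) in HOE_APP vs APP_WT. Txnrd1 in APP_WT vs WT was at -0.0093 with processed signals and with the deposited ratios. When an array was left out, uncalled values crossed 0 as follows. In APP_WT vs WT Nqo1 ran from -0.085 to 0.080, Txnrd1 from -0.035 to 0.040 and Gsr from -0.034 to 0.0071. In BK_APP vs APP_WT Nqo1 ran from -0.046 to 0.18, Gclm from -0.012 to 0.064, Gclc from -0.038 to 0.077, Srxn1 from -0.032 to 0.11 and Gsr from -0.035 to 0.096. In HOE_APP vs APP_WT Keap1 ran from -0.082 to 0.051, Hmox1 from -0.020 to 0.11, Gclm from -0.022 to 0.079, Gclc from -0.10 to 0.010, Txnrd1 from -0.018 to 0.026, Srxn1 from -0.053 to 0.057, Gsr from -0.13 to 0.034 and Prdx1 from -0.011 to 0.090. The causes were not tested. The counts for the related genes were added after seeing the data.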
